A study of Arabidopsis thaliana with 28 samples.

Results

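Among the retrotransposons of the Copia superfamily, 7 families with a low mean RNA level in the wild type were examined in the Arabidopsis thaliana mutant caa39: ATRE1, ATCOPIA23, ATCOPIA95, ATCOPIA3, ATCOPIA58, ATCOPIA50 and ATCOPIA70. They were selected on their mean in the wild type, as the Copia families of the authors' deposited table where it was at least 10 and below 100 normalised counts, leaving out ATCOPIA93, ATCOPIA78, ATCOPIA13 and ATCOPIA21. They make up 7 of the 25 Copia families and 7 of the 83 named families in that table, which has 84 entries with the one for unassigned elements. RNA came from aerial parts of seedlings 6 days old, sequenced as 3 libraries from Col-0, the wild type, and 3 from caa39, and both genotypes were grown alike without a treatment. The labels call the mutant only caa39; as background, it is known as a partial loss-of-function allele of the A subunit of topoisomerase VI. The series design describes the RNA libraries as biological replicates.

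Copia elements are long terminal repeat retrotransposons. The RNA of an intact copy serves both as messenger for a polyprotein, with capsid, protease, integrase and reverse transcriptase parts, and as the template that is copied back into DNA. In Arabidopsis such elements are generally kept silent by DNA methylation and dimethylation of histone H3 at lysine 9. Topoisomerase VI passes one DNA duplex through another, and plants need it for endoreduplication. ATRE1 is a Copia element described early in Arabidopsis, and the other families carry the serial ATCOPIA names of the repeat nomenclature.

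Each value is a count of RNA reads summed over all copies of a family and divided by the size factor of its library. It is not per length, so levels of different families cannot be compared as abundance of molecules. The deposited table gives group means, and library values were solved from their digits as whole reads. The libraries are lettered a, b and c within a genotype by falling size factor, and these letters are not replicate numbers. Listed entries held 22924 to 26678 reads per wild-type library and 20791 to 31566 per caa39 library, and 1 read was worth 0.732 to 1.22 normalised counts. The members had 36 to 220 reads over the 3 wild-type libraries and 4 to 1516 over the 3 caa39 libraries. In whole aerial parts, fewer cells carrying an RNA and less of it per cell cannot be told apart.

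The comparison of genotypes asked how the RNA of these families differed in caa39. They divided: ATRE1, ATCOPIA23 and ATCOPIA95 were listed as higher in caa39, and ATCOPIA3, ATCOPIA58, ATCOPIA50 and ATCOPIA70 as lower. In the authors' deposited table folds ran from 6.63 for ATRE1 down to 0.0817 for ATCOPIA70. The counts of 3 higher and 4 lower stand beside 48.2% higher and 51.8% lower among all 83 named families. Every listed family had passed the authors' adjusted p of 0.05, so being listed is a condition of membership and not a result. The wild-type mean that chose the members is also the denominator of the folds, and the folds are given as description. For the same reason the limma intervals below, fitted over all 83 families, describe the spread between libraries and are no independent evidence.

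**Figure D1:**
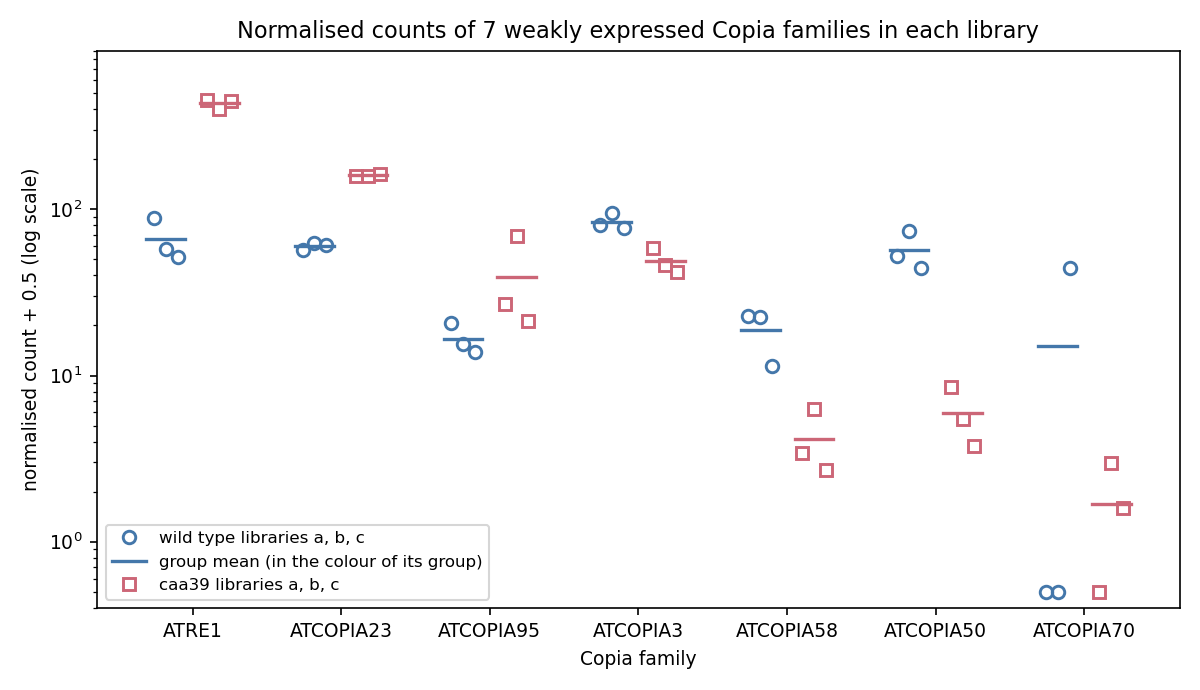
Normalised count plus 0.5 (log scale) of each of the 7 families in 3 wild-type libraries (blue circles) and 3 caa39 libraries (red squares), drawn in the order a, b, c; horizontal bars are group means. The groups lie apart in 6 families, and in ATCOPIA70 a single wild-type library lies far above the other 5 libraries.

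ATRE1 showed the widest gap among the families that were higher. In the wild type it had 88.0 (library a), 57.6 (b) and 51.1 (c) normalised counts. In caa39 libraries a, b and c the family reached 455, 404 and 445 normalised counts. Every caa39 library therefore exceeded every wild-type library, by 4.59-fold for the closest pair of libraries and 8.91-fold for the farthest. The mean was 65.5 ± 19.7 normalised counts for Col-0 and 435 ± 27.2 for the mutant (SD, n = 3 each). Its adjusted p was 6.04e-24 according to the authors' deposited table, which is rank 9 among the 83 families. With limma the log2 fold change was 2.76 ± 0.22 (SE), with a 95% interval of 2.21 to 3.31. The wild-type libraries of ATRE1 varied among themselves by 5.25 times the variance expected from counting reads, with library a the highest. Leaving out library a moved the ratio of means to 8.00, and leaving out wild-type library c moved it to 5.97.

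ATCOPIA23 was the most even of the 7 families. It held 56.2, 62.2 and 60.8 normalised counts in wild-type libraries a, b and c. In caa39 they were 159, 158 and 162 in the same order of letters. Libraries of one genotype lay close together and the genotypes did not overlap, with ratios between single libraries of 2.54 to 2.88. The means were 59.7 ± 3.15 and 160 ± 2.08 normalised counts (SD, n = 3 each), and the authors' deposited table has a fold of 2.67 (adjusted p = 2.16e-10). The limma log2 fold change was 1.41 ± 0.08 (SE), with a 95% interval of 1.21 to 1.62. The variance between libraries was 0.145 of that expected from counting in the wild type and 0.0307 in caa39. With 3 libraries such a ratio is imprecise, and a value below 1 says only that the spread did not exceed counting error. The wild-type library values were also solved in a way that favours a small spread between libraries, as described under processing.

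ATCOPIA95 was also listed as higher, but on uneven libraries. Its wild-type libraries a, b and c had 19, 13 and 11 reads, or 20.1, 15.0 and 13.4 normalised counts. The caa39 libraries a, b and c had 36, 83 and 19 reads, or 26.4, 68.6 and 20.8 normalised counts. The lowest caa39 library lay just above the highest wild-type library, at 1.03 times its value, and library b stood apart from the other caa39 libraries. The group means were 16.2 ± 3.54 and 38.6 ± 26.2 normalised counts (SD, n = 3 each). A fold of 2.39 (adjusted p = 0.0273) stands in the authors' deposited table. Without caa39 library b the ratio of means was 1.46. In limma the log2 fold change was 1.05 with a 95% interval of −0.13 to 2.23 (adjusted p = 0.0724), so the difference did not exceed the spread between libraries there. Without caa39 library c the limma log2 fold change was 1.39 (adjusted p = 0.0414), and without caa39 library b it was 0.54 (adjusted p = 0.0694).

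ATCOPIA50 had the deepest fall that all libraries shared. Normalised counts were 51.9, 73.7 and 43.8 in wild-type libraries a, b and c. In caa39 libraries a, b and c 8.05, 4.96 and 3.28 were left, on 11, 6 and 3 reads. The highest caa39 library was at 0.184 of the lowest wild-type library. The authors' deposited table has a fold of 0.0962 (adjusted p = 1.09e-12). Pooled over libraries, 149 wild-type and 20 caa39 reads gave a ratio of 0.101, with an exact 95% interval of 0.0602 to 0.162. Such intervals cover counting error only and not the spread between plants. The limma log2 fold change was −3.31 ± 0.35 (SE), with a 95% interval of −4.19 to −2.43.

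ATCOPIA58 rested on fewer reads but its genotypes were also apart. Its wild-type libraries a, b and c had 21, 19 and 9 reads, or 22.3, 21.9 and 10.9 normalised counts. The caa39 libraries a, b and c had 4, 7 and 2 reads, or 2.93, 5.79 and 2.19 normalised counts. The nearest libraries of the 2 genotypes were wild-type c and caa39 b, the latter at 0.529 of the former. The authors' deposited table has a fold of 0.198 (adjusted p = 0.00299), and the ratio of pooled reads was 0.200 with an exact 95% interval of 0.0997 to 0.375. The limma log2 fold change was −2.22 ± 0.42 (SE). Leaving out 1 library at a time gave ratios of means from 0.139 to 0.237.

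ATCOPIA3 had the smallest deposited fold of the 7 families in either direction. Its normalised counts were 79.5, 94.5 and 76.6 in wild-type libraries a, b and c, against 57.8, 45.5 and 41.6 in caa39 libraries a, b and c. All caa39 libraries were below all wild-type libraries, with ratios between single libraries of 0.440 to 0.755. The authors' deposited table lists it at 0.578 of the wild type (adjusted p = 0.0124). Before division by size factors the reads overlapped, with 75, 82 and 63 for Col-0 and 79, 55 and 38 for caa39. Per 100000 listed reads, with the unassigned entry counted, the family had 281, 324 and 275 for Col-0 and 250.3, 198 and 183 for caa39, again without overlap. The limma log2 fold change was −0.79 with normalised counts (adjusted p = 0.00451) and −0.49 on the scale of listed reads (adjusted p = 0.0257).

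ATCOPIA70 was listed as lower, and its wild-type level came from 1 library. Libraries a and b of the wild type had 0 reads and library c had 36, or 43.8 normalised counts. The caa39 libraries a, b and c had 0, 3 and 1 reads, or 0, 2.48 and 1.09 normalised counts. The genotypes overlapped, and 5 of the 6 libraries held 3 reads or fewer. The authors' deposited table has a fold of 0.0817 (adjusted p = 0.00354). In limma the log2 fold change was −0.74 with a 95% interval of −5.62 to 4.14 (adjusted p = 0.719). Without wild-type library c its sign turned, to 1.42 (adjusted p = 0.137), where every wild-type value is the pseudocount alone. The limma value there is set by the pseudocount, and no ratio of means is given for that setting. The 0 reads in wild-type libraries a and b allow up to 1.66 normalised counts, and the pooled caa39 mean was 1.15. A lower level of ATCOPIA70 in caa39 was therefore not detectable without that library.

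**Figure D2:**
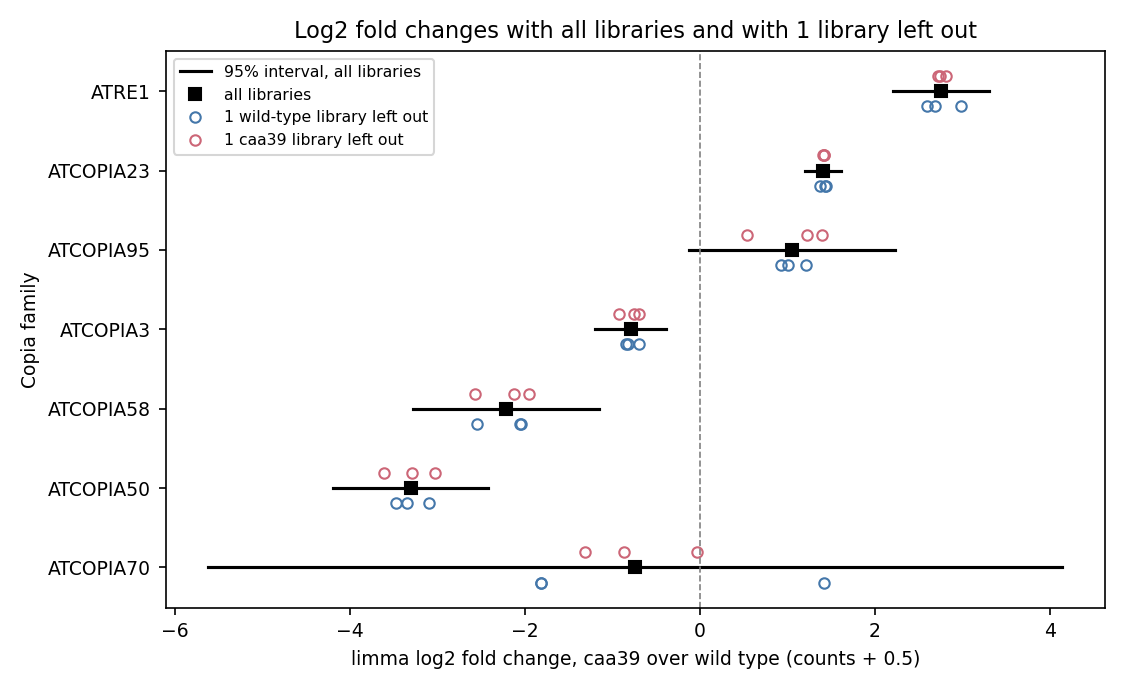
Limma log2 fold change of each family, caa39 over wild type, on log2 of the normalised count plus 0.5, with all libraries (black square, with its 95% interval as a line) and with 1 wild-type library (blue) or 1 caa39 library (red) left out. The values of 6 families stay on their side of 0 throughout, although the interval of ATCOPIA95 crosses 0. ATCOPIA70 moves from −0.74 to 1.42 without wild-type library c, where its wild-type values are the pseudocount alone.

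The libraries of the 2 genotypes did not overlap in 6 of the 7 families, against 98.8% of the 83 named families, all listed for a difference between these libraries. In limma 2 members were higher, ATRE1 and ATCOPIA23, and 3 were lower, ATCOPIA50, ATCOPIA58 and ATCOPIA3, beside 47% higher and 50.6% lower among the 83 families. ATCOPIA95 and ATCOPIA70 were the families outside. No other listed family missed that limit, since limma passed 81 of the 83 families (97.6%). Without wild-type library c and caa39 library b, a setting chosen after the values were seen, limma again passed 2 higher and 3 lower members. At least 2-fold changes were listed for 3 higher and 3 lower members, beside 36.1% and 25.3% of the 83 families.

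Both uneven families stood out among the listed families in their spread. For ATCOPIA70 the variance between wild-type libraries was 36.0 times that of counting, rank 2 among the 73 families with at least 10 wild-type reads, whose median was 1.25. Its share of normalised counts in 1 wild-type library, 100%, was rank 1, against a median of 36.7%. For ATCOPIA95 the variance between caa39 libraries was 20.8 times that of counting, rank 1 among the 80 families with at least 10 caa39 reads, whose median was 1.23. The wild-type variance of ATCOPIA95 was 0.684 of that of counting. These excesses fell in different libraries, wild-type c for ATCOPIA70 and caa39 b for ATCOPIA95. In wild-type library c ATCOPIA58, ATCOPIA50, ATCOPIA95, ATRE1 and ATCOPIA3 had their lowest wild-type value, and ATCOPIA23 its middle one. In caa39 library b ATCOPIA58 and ATCOPIA70 also had their highest caa39 value, on 7 and 3 reads, ATRE1 and ATCOPIA23 their lowest, and ATCOPIA50 and ATCOPIA3 their middle one.

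Added together, the 7 families had 314 ± 12.7 normalised counts per Col-0 library and 691 ± 16.5 per caa39 library (SD, n = 3 each), a ratio of 2.20. The wild-type libraries a, b and c summed to 318, 325 and 300.2, and the caa39 libraries to 709, 689 and 676. ATRE1 carried this net difference: without it the other 6 families summed to 249 ± 18.6 and 257 ± 27.3 (SD, n = 3 each), with overlapping libraries. Those near-equal sums are a balance of opposite changes. The 4 lower members fell from 173 ± 18.3 to 58.6 ± 10.3 (SD, n = 3 each), while the means of ATCOPIA23 went from 59.7 to 160 and of ATCOPIA95 from 16.2 to 38.6. ATRE1 supplied 20.8% ± 5.96 of the summed counts of Col-0 and 62.9% ± 3.80 of those of caa39 (SD, n = 3 each). ATCOPIA50 went the other way, from 17.9% ± 4.27 to 0.781% ± 0.330, and ATCOPIA3 from 26.5% ± 2.22 to 6.97% ± 1.06 (SD, n = 3 each). The share of ATCOPIA23 was 19.0% ± 1.29 for Col-0 and 23.1% ± 0.779 for caa39 (SD, n = 3 each). A rise in the sum was not particular to the members. The 24 listed families of other superfamilies in the same window of wild-type means summed to 1096 ± 71.5 for Col-0 and 1783 ± 33.3 for caa39 (SD, n = 3 each). A sum over families listed for their change gets no test here.

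**Figure D3:**
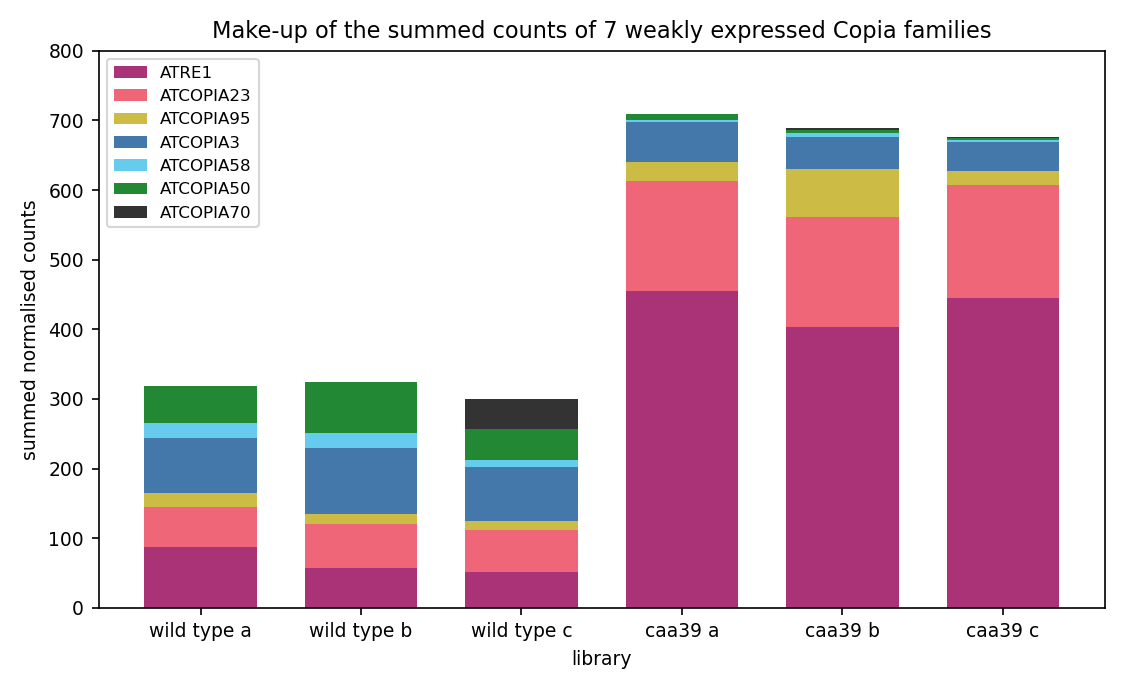
Stacked normalised counts of the 7 families in each of 3 wild-type and 3 caa39 libraries. The totals lie at 300.2 to 325 in the wild type and 676 to 709 in caa39, ATRE1 takes up most of the caa39 bars, and ATCOPIA70 is visible in wild-type library c.

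The members also took a larger part of the Copia RNA that the table lists. Of the summed normalised counts of the 25 Copia families they held 4.74% ± 0.174 for Col-0 and 13.4% ± 0.358 for caa39 (SD, n = 3 each). This rise rested mainly on ATRE1, since the other 6 members summed to 249 ± 18.6 for Col-0 and 257 ± 27.3 for caa39 (SD, n = 3 each). Over the same libraries the sum of all 25 families fell from 6629 ± 99.8 to 5160.1 ± 186, so the members took more of a lower sum. That fall was not particular to Copia, since the sum of all 83 named families went from 20398 ± 751 to 16433 ± 392 (SD, n = 3 each). This sum covers listed families and not all Copia elements.

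Set beside listed families of other superfamilies in the same window of wild-type levels, the 7 members with 3 higher and 4 lower stand against 24 families with 13 higher and 11 lower. Median log2 fold changes were 0.65 over the 24 families, against −0.79 over the 7 members and −0.35 over all 83 families. Taken without sign, the median log2 fold change was 2.34 in the members, 1.29 in the 24 families and 1.42 in all 83. The members lack ATCOPIA13 and ATCOPIA78, Copia families of this window that were left out by name, with deposited log2 fold changes of 0.94 and 0.86. Both are positive and smaller than these unsigned medians. No family was left out of the 24 by name, so the medians of the members do not stand for all listed Copia families of the window. At least 4-fold falls were listed for 3 of the 7 members, ATCOPIA70 included, and for 3 of the 24 other families. They were also listed for 3 of the 11 Copia families with a wild-type mean of at least 100, and for 10 of all 83 families. Rises of at least 4-fold were listed for 1 of the 7 members, 3 of the 24 families and 21 of all 83. Of the 11 Copia families with a wild-type mean of at least 100, 2 were higher and 9 lower, with a median log2 fold change of −0.63. All 5 listed Copia families below a wild-type mean of 10 were higher. They had 0 to 4 wild-type reads each, and from so few reads a fall could hardly have passed the authors' threshold. Their shared direction was therefore set by being listed and says nothing about a dependence on level. Of these families 3 had 0 wild-type reads, for which the authors' deposited table divides by 1, so no median fold is given. The medians over all 83 families contain 4 such entries as deposited. None of these differences between lists was tested.

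**Figure D4:**
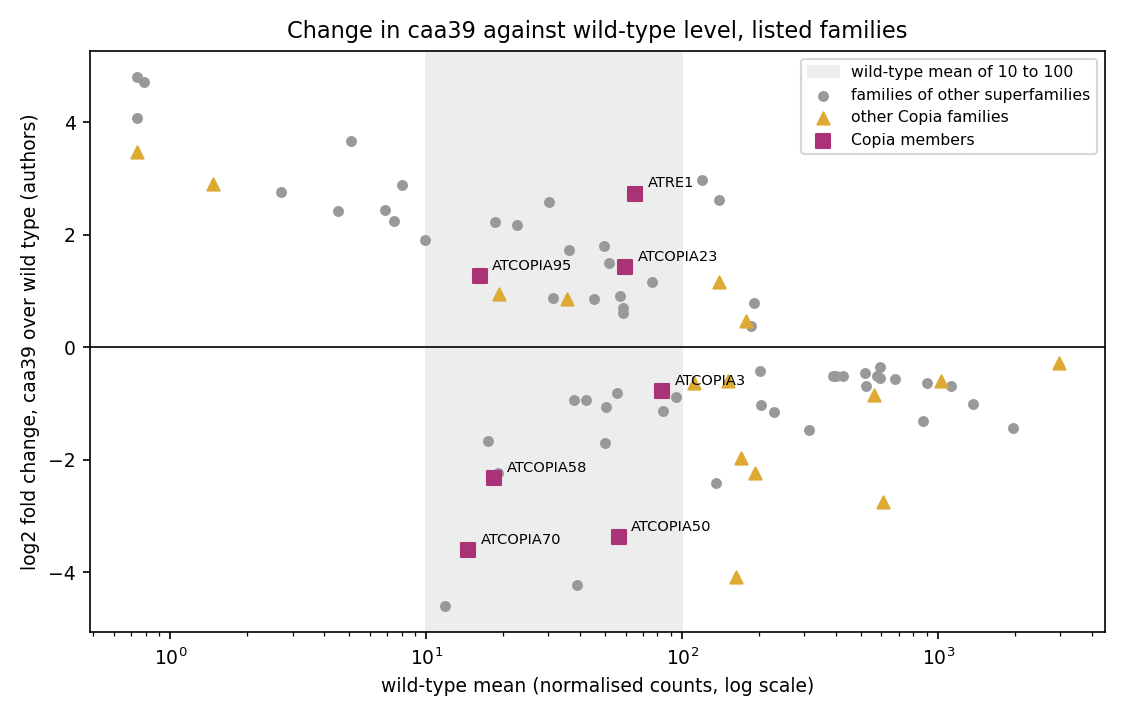
Log2 fold change of caa39 over wild type in the authors' deposited table against the wild-type mean (normalised counts, log scale) for listed families with wild-type reads: members (purple squares, named), other Copia families (yellow triangles) and other superfamilies (grey circles); the shaded band spans means of 10 to 100. The members lie on both sides of 0, from 2.73 for ATRE1 to −3.61 for ATCOPIA70.

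At the limits of the window, ATCOPIA70 with a wild-type mean of 14.6 was the lowest member and ATCOPIA51 with 1.47 the nearest Copia family below. ATCOPIA3 with 83.5 was the highest member and ATCOPIA66 with 111 the nearest above. ATCOPIA66 was at 0.646 of the wild type and ATCOPIA3 at 0.578 in the authors' deposited table. Of the 4 families left out by name, ATCOPIA13 and ATCOPIA78 have wild-type means inside the window, 19.2 ± 5.65 and 35.4 ± 11.2 normalised counts (SD, n = 3 each). Both were higher in caa39, at folds of 1.91 and 1.81 in the authors' deposited table, so the whole window holds 5 higher and 4 lower Copia families. ATCOPIA93 and ATCOPIA21 lie outside it.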

How the data were processed

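RNA libraries of 3 wild-type and 3 caa39 samples were grouped by the genotype in their labels; chromatin and bisulfite libraries of the series were not analysed here. Per the submitters' processing notes the TAIR10 build, Bowtie2, FastQC (version 0.10.1) and edgeR (version 1.12.0) were used, with no role stated. The treatment of reads that match several copies is not stated there, so related families may share reads. Per the file headers, the deposited signal is a genotype's mean normalised count, the deposited ratio or fold is caa39 over wild type, and the deposited log2 is that fold on a log scale. Each deposited p-value comes with an adjusted one, at most 0.0499. Total library depths are unknown.

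Library reads were solved from the digits of the deposited means: 3 times a mean adds up whole reads of 3 libraries, each weighted by the value of 1 read there. With the constants taken, all 84 entries had 1 solution per genotype, with relative residuals up to 4e-15 in the wild type and 5e-15 in caa39. Several sets of constants were possible (23 and 2). The set with the smallest median coefficient of variation between libraries was taken (14.6% in the wild type, against 19.8% for the next, and 12.1% in caa39), and among sets that only split a read into parts the one with the largest read. This choice favours a small spread between libraries. The SDs, variance ratios, overlaps of libraries and limma intervals all rest on it, and no other set was carried through. The solver and the limma step were tested on simulated data. With counting noise only, the solver recovered all 84 entries in each group. With 43 of 83 families unchanged, limma passed 0 of these, 17 of 20 changed 2-fold and 20 of 20 changed 4-fold. Both settings differ from these data, where nearly all listed families differ and some libraries spread beyond counting error. Solved values cannot be tied to replicate numbers.

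Calls are the authors'. As an alternative limma 3.58.1 in R 4.3.3 was fitted on log2 of the normalised count plus 0.5 over the 83 named families, with Benjamini-Hochberg adjustment; since nearly all of them differ, that adjustment changes little. Ratios of pooled reads have exact conditional binomial intervals at 95% (scipy 1.17.1, Python 3.11.15), and a group with 0 reads has a floor of 3 reads over the libraries named. All members are named. Other families are named by rule: the Copia families nearest outside the limits, those left out by name, and for each member the family nearest in both group means. The members, lists and tests were chosen with earlier results of these data known. The 24 families of other superfamilies and the other Copia families serve as comparison lists, with no test.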

Additional observations from a re-analysis of the deposited data

How the results depend on the processing

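The counts of 3 higher and 4 lower members became 2 and 3 at an authors' adjusted p below 0.01 and in limma. The 3 lower members differed between these settings. The stricter threshold dropped ATCOPIA3 (authors' adjusted p = 0.0124) and kept ATCOPIA70, and limma dropped ATCOPIA70 (limma adjusted p = 0.719) and kept ATCOPIA3. The counts became 3 and 3 at a 2-fold minimum, and 5 and 8 with a window of 5 to 200, which adds families by construction. With 1 library left out limma passed 2 to 3 higher and 3 lower members. Scaled to listed reads, an alternative added after the values were seen, it passed 3 higher and 3 lower. That scaling raised the limma log2 fold changes of all 83 families by a median of 0.31 and turned no member. The log2 ratio of the summed members, 1.14, was 1.45 with group means scaled to listed entries, 0.045 without ATRE1, 1.48 without ATCOPIA3, and 1.10 to 1.16 with 1 library left out. In limma ATCOPIA70 turned to 1.42 without wild-type library c, and to 0.84 without that library and caa39 library b, both short of the threshold (limma adjusted p = 0.137 and 0.266). In both settings its wild-type values are the pseudocount alone, so the turned sign is no sign of a rise. ATCOPIA95, short of the threshold in limma, passed at 1.35 on listed reads (limma adjusted p = 0.0379) and at 1.39 when caa39 library c was left out (limma adjusted p = 0.0414); the cause was not tested. Of 82 alternative values for single members 76 kept the direction and call of the value they were set against. For alternatives within limma that value was limma's own and not the authors' call. The 76 therefore include 8 values of ATCOPIA70 and 9 of ATCOPIA95 that again fell short of the threshold in limma, unlike the authors' calls. At a minimum mean of 20 ATCOPIA58 and ATCOPIA70 could not be fitted. No paired analysis was possible because the lettered libraries could not be matched to the replicate numbers of the labels. ATCOPIA58, ATCOPIA50 and ATCOPIA70 rest on 13, 20 and 4 caa39 reads, and ATCOPIA95 and ATCOPIA70 on libraries that spread beyond counting error.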

Other observations

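For each of the 7 members the listed family outside the members with the closest pair of group means was looked up, by distance over log2 of the wild-type and caa39 means plus 0.5. The closest match was ATDNAI27T9B, a MuDR DNA transposon family, for ATCOPIA23 (distance 0.00917). It went from 59.8 ± 6.90 to 161 ± 38.8 normalised counts (SD, n = 3 each), with a wider spread in caa39 than ATCOPIA23 showed. ATCOPIA58 was matched by ATHPOGON2, a Pogo family, which went from 19.0 ± 2.57 to 4.03 ± 0.622, and ATCOPIA3 by the Helitron family ATREP4, which went from 94.5 ± 28.0 to 51.3 ± 4.69 (SD, n = 3 each). ATCOPIA95 was matched by ATCOPIA13, a Copia family that rose from 19.2 ± 5.65 to 36.8 ± 11.0 (SD, n = 3 each). The other 3 members had no near match: the distance was 0.827 for ATCOPIA70 to RP1_AT, 1.18 for ATRE1 to ATCOPIA8B and 1.32 for ATCOPIA50 to the Helitron family ATREP6. These likenesses cover 2 group means and are descriptions of levels that are not per length.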
